A study of Mus musculus with 6 samples.

Results

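The genes described here mark GABAergic interneurons, a class of inhibitory cells of the forebrain. They are 9 of the 55604 gene identifiers in the deposited count tables, chosen by name: the GABA synthesis genes Gad1 and Gad2, the vesicular GABA transporter gene Slc32a1, and the subclass genes Pvalb, Sst, Vip, Lhx6, Adarb2 and Reln. All 9 had reads in every library and passed the filter on low counts. The libraries were made from C57BL/6 mouse brain, 3 from mice given 4-aminopyridine (4-AP) by intraperitoneal injection and 3 from untreated mice (NC). 4-AP, a blocker of voltage-gated potassium channels, served to bring on status epilepticus, in which seizures do not stop by themselves. In all 6 samples linear RNA had been digested with the exonuclease RNase R before the libraries were made. The labels give no age, sex, dose, time after injection or brain region, and do not say whether each sample came from a separate animal.

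GABA is made from glutamate by a pair of glutamate decarboxylases, GAD67 (Gad1) and GAD65 (Gad2), and loaded into synaptic vesicles by the transporter VGAT (Slc32a1). Cortical interneurons arise in the ganglionic eminences of the embryonic brain. Those from the medial eminence carry the transcription factor Lhx6 and later parvalbumin or somatostatin, and those from the caudal eminence carry Adarb2 and include the VIP cells. These genes are not confined to cortical interneurons: striatal projection neurons and cerebellar Purkinje cells also use GABA, and cerebellar granule cells make reelin. Loss or failure of inhibition is a long-studied feature of epilepsy.

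The question was whether these genes differed between 4-AP and NC brain, and how they stood against Slc17a7, the vesicular glutamate transporter of cortical excitatory neurons. None of the 9 passed the test of 4-AP against NC, edgeR's quasi-likelihood test at a Benjamini-Hochberg adjusted p under 0.05. Of all 11388 genes tested 0.843% passed, 0.334% higher and 0.509% lower. At an unadjusted p under 0.05 there was 1 of the 9, Adarb2, beside 13.9% of all genes, and DESeq2 called Adarb2 and did not call Gad1, Gad2, Slc32a1, Sst or Reln. DESeq2 gave no adjusted p for Pvalb, Vip and Lhx6. The median log2 fold change of the 9 genes was -0.016, with 4 above 0, beside a median of -0.0076 over all genes tested, of which 49% were above 0. Slc17a7 passed, and was lower in 4-AP brain. In bulk RNA after RNase R, fewer cells of a type, less RNA per cell and a larger share digested cannot be told apart.

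The libraries held between 1507882 and 3409055 counts, and 3 counts corresponded to between 0.778 and 2.19 CPM (counts divided by the scaled library size, times 1000000). Groups of regional marker genes differed between libraries. The 12 markers of striatal projection neurons, which also express Gad1, Gad2 and Slc32a1, summed to 248.6 CPM in NC replicate 1, against 1069 and 1739 CPM in the other controls and 1062 to 1438 CPM in the 4-AP libraries. The striatal adenosine receptor gene Adora2a was at 1.26 CPM in NC replicate 1 and between 49.0 and 108 CPM elsewhere. The 12 hypothalamic markers summed to between 89.0 and 143 CPM in 4-AP brain and between 8.93 and 22.9 CPM in NC brain. Of the 12, 6 were tested and 5 (Gpr101, Trh, Avp, Oxt and Irs4) passed as higher in 4-AP brain, beside 0.334% of all genes. Some of these, such as the vasopressin gene Avp with 22, 29 and 26 counts against 0, 3 and 0, passed the filter on low counts only through the 4-AP libraries. The 6 thalamic markers summed to 32.6, 140.4 and 133 CPM in the 4-AP libraries (replicates 1, 2 and 3). In the NC libraries they summed to 146, 31.4 and 29.9 CPM, with NC replicate 1 the highest. The 9 cerebellar markers summed to between 80.2 and 142 CPM in 4-AP brain and between 70.5 and 92.7 CPM in NC brain. However, the cerebellar granule cell gene Gabra6 had 0 counts in every library. The Purkinje cell gene Pcp2 had 3 counts over the 4-AP group and 2 over the NC group. The part of these marker differences in the results below was not tested. For the 9 interneuron genes, fold changes without NC replicate 1 are given beside those with it. Fold changes of all other genes are those over all 6 libraries.

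**Figure D1:**
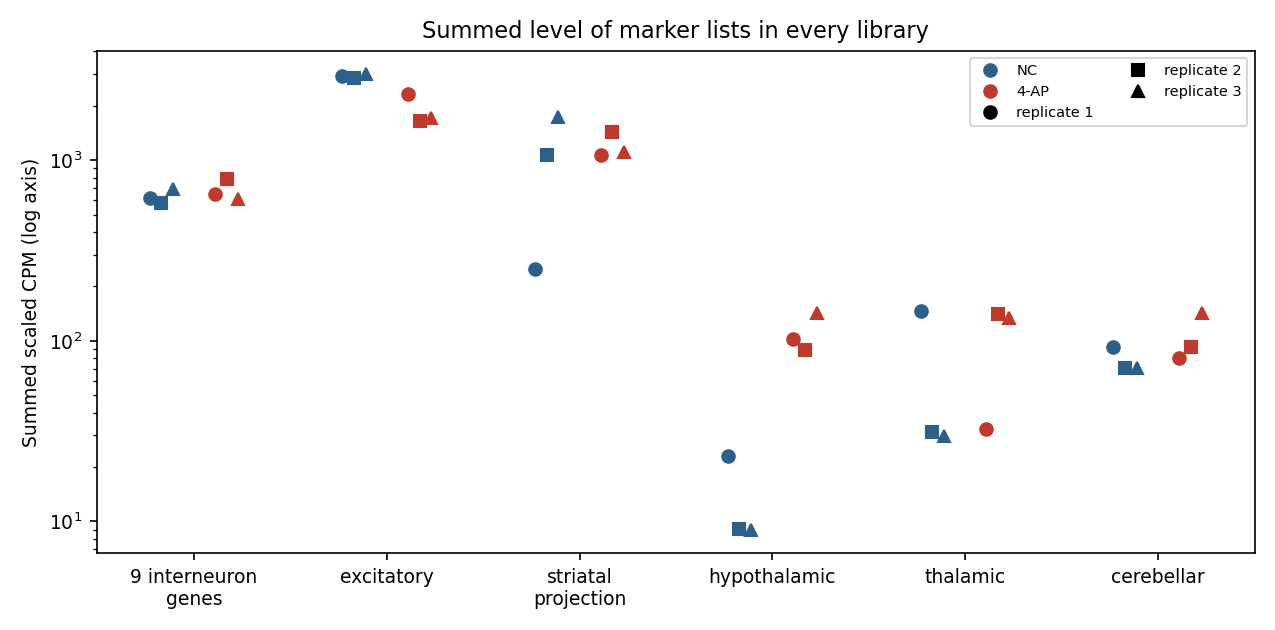
Summed scaled CPM (log axis) of the 9 interneuron genes and of 5 marker lists in each library, NC in blue and 4-AP in red, with the marker shape giving the replicate number. The 9 interneuron genes stay between 576 and 788 CPM, while striatal markers are at 248.6 CPM in NC replicate 1 and hypothalamic markers are higher in each 4-AP library than in each NC library.

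Gad1, on mm10 chromosome 2 (70553072 to 70602014, plus strand), encodes GAD67, the decarboxylase that supplies most of the brain's GABA. It was at 146, 191 and 126 CPM in the 4-AP libraries (replicates 1, 2 and 3) and at 141, 159.8 and 182 CPM in the NC libraries. The highest and the lowest library were both 4-AP libraries, and the groups overlapped. The mean was 154 ± 33.0 CPM in 4-AP brain and 161 ± 20.5 in NC brain (SD, n = 3 each). The log2 fold change was -0.048 (SE 0.17, 95% interval -0.40 to 0.30), with an edgeR adjusted p of 0.946, and -0.12 without NC replicate 1. The interval over all 6 libraries runs from 0.76-fold to 1.23-fold.

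Gad2, also on chromosome 2 (22622205 to 22693874, plus strand), encodes GAD65, the decarboxylase found mainly at nerve endings. It was at 75.6, 120.1 and 89.9 CPM in 4-AP brain and at 53.1, 80.7 and 107 CPM in NC brain. NC replicate 1, the library with few striatal markers, was the lowest, and the other 5 libraries were interleaved. The log2 fold change was 0.27 (SE 0.23, 95% interval -0.21 to 0.75; adjusted p = 0.682 by edgeR's test), and 0.055 without NC replicate 1. The Gad1 to Gad2 count ratio was 1.93, 1.59 and 1.41 with 4-AP and 2.66, 1.98 and 1.71 without. It was highest in NC replicate 1 and the groups overlapped.

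Slc32a1 (chromosome 2, 158610767 to 158615748, plus strand) encodes VGAT, which fills vesicles with GABA and glycine. Its levels were 41.1, 57.5 and 44.6 CPM in 4-AP brain and 53.7, 35.0 and 58.9 CPM in NC brain. NC libraries were at both ends of the range. The log2 fold change was -0.016 (SE 0.22, 95% interval -0.47 to 0.44; adjusted p = 0.986 by edgeR's test), and 0.074 without NC replicate 1. Of its exonic bases 24.9% lie opposite the gene Gm14205, which had at most 5 counts in a library, against 61 or more for Slc32a1.

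**Figure D2:**
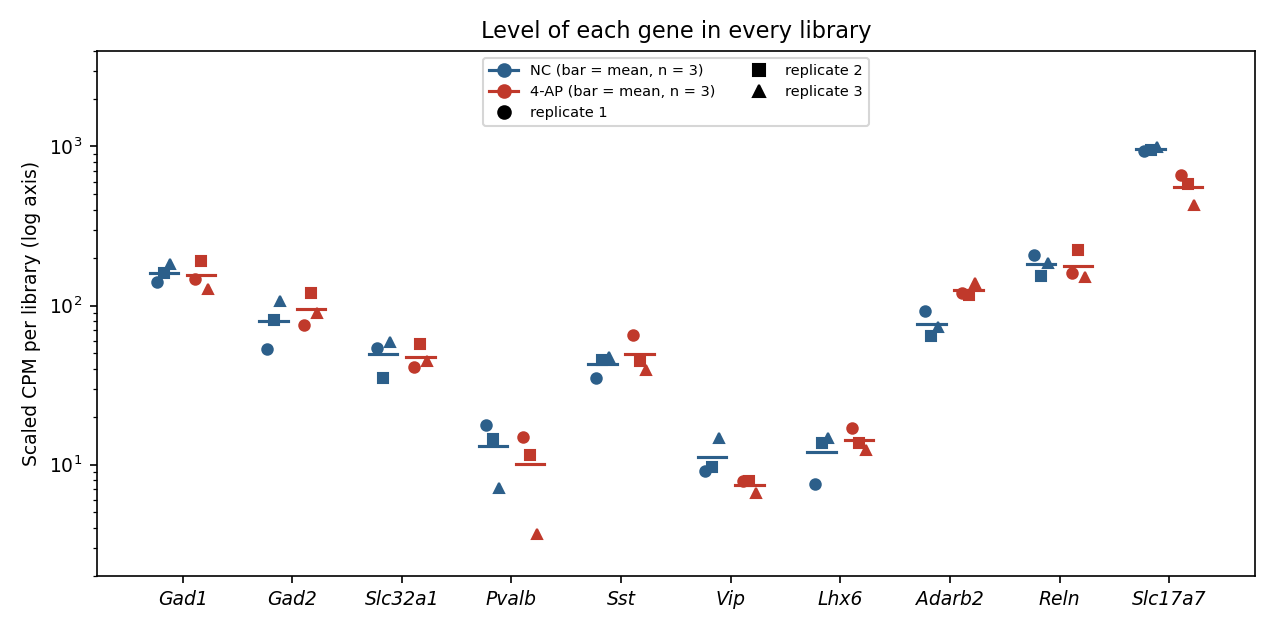
Scaled CPM (log axis) of the 9 interneuron genes and Slc17a7 in each library, NC in blue and 4-AP in red, with bars at the group means (n = 3) and the marker shape giving the replicate number. The groups overlap for 7 of the 9 genes, Adarb2 is higher and Vip lower in every 4-AP library, and Slc17a7 lies between 431 and 658 CPM in 4-AP brain and between 938 and 998 CPM in NC brain.

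Of the subclass genes, Adarb2 had the smallest p. Adarb2 (chromosome 13, 8202866 to 8768747, plus strand) encodes a brain protein of the RNA-editing adenosine deaminase family for which no editing activity is known. It was at 119, 116 and 139 CPM in the 4-AP libraries and at 92.7, 64.3 and 73.2 CPM in the NC libraries. Every 4-AP library lay above every NC library, with NC replicate 1 nearest to the 4-AP libraries. The mean was 125 ± 12.2 CPM against 76.7 ± 14.5 (SD, n = 3 each), and the log2 fold change was 0.70 (SE 0.17, 95% interval 0.34 to 1.06). With an edgeR adjusted p of 0.0577 it did not pass. It ranked 122 by p among the 11388 genes. It passed without 4-AP replicate 2 (log2 0.78, adjusted p = 0.0449) and without NC replicate 1 (log2 0.87, adjusted p = 0.0192 by the same edgeR test). It did not pass in the other 4 fits that left out 1 library, where the log2 fold change was at least 0.60.

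Vip (chromosome 10, 5639218 to 5647617, plus strand) encodes vasoactive intestinal peptide, made by caudal interneurons that inhibit other interneurons. It was at 7.82, 7.86 and 6.58 CPM in the 4-AP libraries, from 12, 22 and 9 counts, and at 9.11, 9.60 and 14.7 CPM in the NC libraries, from 29, 37 and 33 counts. Every 4-AP library lay below every NC library, but the counting intervals of single libraries overlapped, with 4-AP replicate 2 at 4.93 to 11.9 CPM and NC replicate 1 at 6.10 to 13.1 CPM (exact Poisson 95%, counting error only). The log2 fold change was -0.55 (SE 0.36, 95% interval -1.30 to 0.20; adjusted p = 0.551 by edgeR's test), and -0.66 without NC replicate 1. Adarb2 and Vip were the 2 of the 9 genes whose groups did not overlap. Among all genes tested 18.8% had no overlap, 8.36% higher and 10.4% lower in 4-AP brain. Both mark caudal cells, and their values lay on opposite sides of 0.

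Lhx6 (chromosome 2, 36081953 to 36105408, minus strand) encodes the homeodomain factor that specifies medial interneurons. It was at 16.95, 13.6 and 12.4 CPM in 4-AP brain and at 7.54, 13.7 and 14.7 CPM in NC brain. NC replicate 1 was the lowest library and the groups overlapped. The log2 fold change was 0.26 (SE 0.32, 95% interval -0.41 to 0.93, edgeR adjusted p = 0.80) and was 0.018 without NC replicate 1. The Lhx6 to Adarb2 count ratio was 0.142, 0.117 and 0.0895 with 4-AP and 0.0814, 0.214 and 0.201 without. NC replicate 1 was the lowest of the 6 for this ratio, and the other controls were the highest.

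Pvalb (chromosome 15, 78191114 to 78206400, minus strand) encodes parvalbumin, the calcium buffer of fast-spiking basket and chandelier cells. It was at 14.99, 11.4 and 3.65 CPM in 4-AP brain, from 23, 32 and 5 counts, and at 17.6, 14.5 and 7.14 CPM in NC brain, from 56, 56 and 16 counts. In both groups replicate 3 was the lowest, and the groups overlapped. Pvalb varied most of the 9 genes, with a coefficient of variation of 57.8% in 4-AP brain and 41.1% in NC brain, against 9.77% and 18.9% for Adarb2. Its log2 fold change was -0.37 (SE 0.40, 95% interval -1.21 to 0.46; adjusted p = 0.766 by edgeR's test), so neither a fall to 0.432-fold nor a rise to 1.38-fold lay outside the interval. Without 4-AP replicate 3 it was -0.044, without NC replicate 1 it was -0.11, and without 4-AP replicate 1 it was -0.69.

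Sst (chromosome 16, 23889573 to 23890958, minus strand) encodes somatostatin, the peptide of dendrite-targeting interneurons. It was at 65.2, 45.0 and 39.5 CPM in 4-AP brain and at 35.2, 45.6 and 47.8 CPM in NC brain. 4-AP replicate 1 was the highest library and NC replicate 1 the lowest, and the rest overlapped. Its log2 fold change was 0.22 (SE 0.22, 95% interval -0.23 to 0.67; adjusted p = 0.737 by edgeR's test), with -0.010 without 4-AP replicate 1 and 0.10 without NC replicate 1.

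Somatostatin and VIP are peptides whose genes respond to cyclic AMP and neuronal activity, and their promoters are shown because the somatostatin promoter is a textbook source of the cyclic AMP response element, TGACGTCA. Both sequences are the 120 bases before the RefSeq gene start (GRCm38.p6, 5′ to 3′ on the gene's strand), with Sst at chr16:23890845-23890964 (minus strand) and Vip at chr10:5639098-5639217 (plus strand). Capitals mark TGACGTCA in Sst and its first 5 letters, TGACG, in Vip.
Sst: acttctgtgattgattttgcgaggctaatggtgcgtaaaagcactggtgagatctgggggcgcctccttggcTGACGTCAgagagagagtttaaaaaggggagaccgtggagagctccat
Vip: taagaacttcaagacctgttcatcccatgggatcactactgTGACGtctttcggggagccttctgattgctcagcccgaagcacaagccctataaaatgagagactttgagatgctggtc
All 9 genes had a RefSeq promoter window, 12 windows in all. In the 250 bases before the start, searched on both strands, TGACGTCA was found for Sst at -48 to -41 and for none of the other 8 genes or Slc17a7. It occurs in 1.55% of all 32851 such windows. The shorter TGACG, which TGACGTCA contains, was found for Sst, for Vip at -79 to -75 and for Gad2 at -33 to -29, and occurs in 17.8% of windows. These are letter matches, not measured binding. For Sst, Gad1 and Gad2 the RefSeq start lies inside the gene as annotated by GENCODE, whose gene coordinates are the ones given above. The TGACGTCA of Sst and the TGACG of Gad2 therefore also lie inside the GENCODE genes. The Sst and Vip counts given above did not pass the test in either direction.

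Reln (chromosome 5, 21884454 to 22344702, minus strand) encodes reelin, a secreted protein that guides neuronal migration in development and is made by interneurons of layer 1 and other cells in the adult. It was at 159, 225 and 151 CPM in 4-AP brain and at 207, 153 and 184 CPM in NC brain. The highest and the lowest library were both 4-AP libraries. Between groups the log2 fold change was -0.016 (SE 0.17, 95% interval -0.37 to 0.34; adjusted p = 0.982 by edgeR's test), and 0.10 without NC replicate 1. Of the 13 listed genes of reelin signalling 12 were tested, and none passed (median log2 fold change -0.10, 4 above 0). The receptor genes Lrp8 and Vldlr were at 0.32 (SE 0.16) and 0.046 (SE 0.23), and Dab1, the adaptor that the receptors phosphorylate through Src-family kinases, was at -0.40 (SE 0.21).

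**Figure D3:**
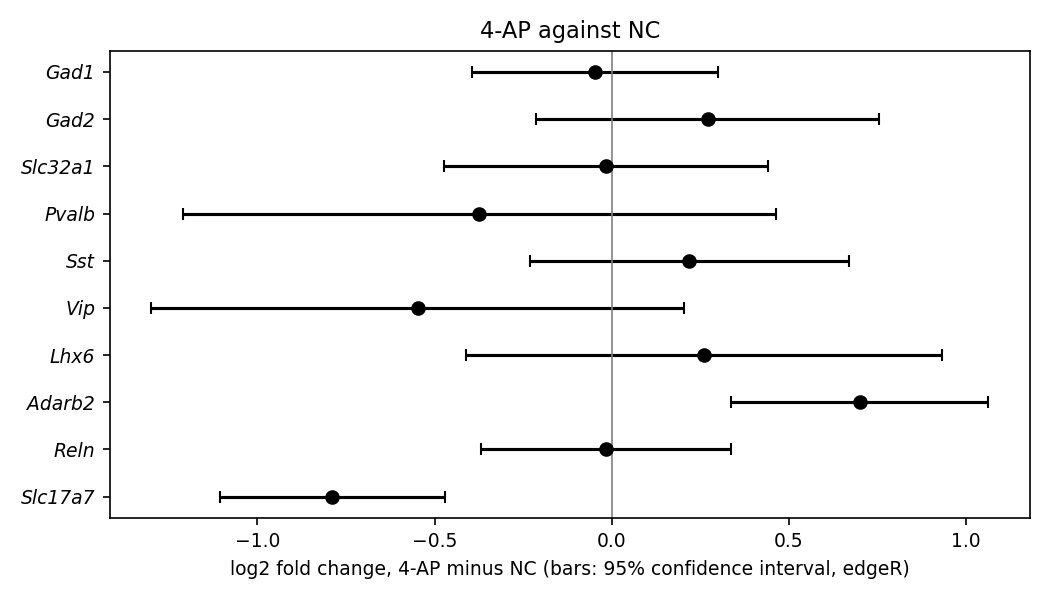
Log2 fold change of each gene, 4-AP minus NC, with 95% confidence intervals from edgeR's quasi-likelihood fit over all genes (3 libraries per group). The intervals of 8 of the 9 interneuron genes include 0, that of Adarb2 runs from 0.34 to 1.06, and that of Slc17a7 from -1.11 to -0.47. The intervals are per gene and not adjusted for the number of genes tested.

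Per kilobase of exon, the 9 genes spanned a wide range of levels. Over the 6 libraries Sst had the highest level, 64.3 ± 14.3 CPM per kb (SD, n = 6), with Gad1 at 20.6 ± 3.25, Slc32a1 at 17.3 ± 3.47, Gad2 at 14.9 ± 4.03 and Pvalb at 11.1 ± 5.07 CPM per kb. Adarb2 followed at 7.69 ± 2.21 and Reln at 7.58 ± 1.31 CPM per kb. Lhx6, at 2.74 ± 0.654, and Vip, at 2.73 ± 0.844 CPM per kb, were the lowest. Slc17a7 was at 141 ± 43.6 CPM per kb, above Sst in each library. The range of Sst lay above that of Gad1, and the range of Reln above that of Lhx6; all other neighbouring interneuron genes in this order overlapped. Divided by the longest annotated transcript instead of all exonic bases, Gad1 stood at 43.8 CPM per kb, Reln at 15.4, Gad2 at 15.3, Adarb2 at 15 and Pvalb at 11.8. By that length the ranges of Sst (lowest 48.8) and Gad1 (highest 53.0 CPM per kb) overlapped, that of Gad1 lay above that of Slc32a1, and all interneuron genes from Slc32a1 down to Vip overlapped their neighbours in the order. Sst and Slc32a1 have 2 exons, and Reln has 65 in its longest coding transcript. The gene counts add up circular and linear reads, so these are levels of the RNA left after RNase R and not of mRNA in tissue.

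Pairs of the 9 genes varied together to different degrees across the 6 libraries. For log2 CPM, Pearson's r was 0.65 between Gad1 and Gad2, 0.46 between Gad1 and Slc32a1 and 0.291 between Gad2 and Slc32a1. It was 0.854 between Lhx6 and Sst, 0.823 between Slc32a1 and Reln, and -0.791 between Adarb2 and Vip. Against Slc17a7, r was 0.816 for Vip and -0.905 for Adarb2. These values describe 6 libraries that share their scaling and, within a group, the treatment, so they carry no test. The genes most like the mean of Gad1, Gad2 and Slc32a1 across the 6 libraries were Shc4 (r = 0.983), Pmvk (0.981), H2afj (0.981), Ifrd1 (0.977) and Lingo3 (0.972), picked from 11388 genes over only 6 points. None of these 5 passed the test of 4-AP against NC, and the members outside that mean had lower r, from -0.269 for Pvalb to 0.562 for Reln.

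The second comparison set each gene against Slc17a7 within the same library, which does not depend on library scaling. Slc17a7 was at 658, 584 and 431 CPM in 4-AP brain and at 938, 956 and 998 CPM in NC brain. Every 4-AP library lay below every NC library. Its log2 fold change was -0.79 (SE 0.15; adjusted p = 0.0142 by edgeR's test), but it did not pass when 4-AP replicate 3 was left out (adjusted p = 0.15), nor without NC replicate 2 (0.0532) or NC replicate 3 (0.0843). Of the 14 excitatory markers, all of them tested, Slc17a7, Nrgn and Neurod2 fell, none rose, and 1 lay above 0 (median -0.76). Over all genes tested 0.509% were called lower. For 10 of the 14 every 4-AP library lay below every NC library, beside 10.4% of all genes. The list summed to between 1657 and 2340 CPM in 4-AP brain and between 2866 and 3018 CPM in NC brain.

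For each 100 Slc17a7 counts there were 22.2, 32.7 and 29.4 Gad1 counts with 4-AP and 15.1, 16.7 and 18.2 without. Every 4-AP library lay above every NC library, and the difference in mean log2 ratio was 0.74, a 1.67-fold higher ratio. For Gad2 there were 11.5, 20.6 and 20.9 counts per 100 in 4-AP brain and 5.67, 8.44 and 10.7 in NC brain, a log2 difference of 1.09. For Adarb2 there were 18.1, 19.96 and 32.3 counts per 100 against 9.89, 6.73 and 7.33, a log2 difference of 1.53. The ratios of Lhx6 (log2 difference 1.12), Sst (1.01), Slc32a1 (0.79) and Reln (0.77) also had no overlap between groups. Those of Pvalb (0.34, exact p = 0.5) and Vip (0.29, exact p = 0.3) overlapped. For each of the 7 ratios without overlap the exact permutation test, two-sided, gave p = 0.1, the smallest possible with 3 against 3 libraries. These are unadjusted p-values of 9 ratios that share a denominator. Without NC replicate 1 the log2 differences were 0.67 for Gad1, 0.84 for Gad2, 0.89 for Slc32a1, 0.62 for Pvalb and 0.90 for Sst. They were 0.18 for Vip, 0.84 for Lhx6, 1.69 for Adarb2 and 0.90 for Reln. In that setting 7 of the 9 ratios had no overlap, which is easier to reach with fewer controls. The share over all genes was not computed for it.

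Most genes had the same pattern against Slc17a7. Of the 11387 other genes tested, 63.7% had every 4-AP ratio above every NC ratio, beside 7 of the 9 interneuron genes. The median log2 difference of all genes was 0.80, and 97.3% lay above 0. Gad1, Reln and Slc32a1 lay just under that median, above 42.9%, 47.1% and 49.2% of all genes. Sst, Gad2 and Lhx6 lay above 72.3%, 78.2% and 80.2% of genes, and Adarb2 above 95.1%. Pvalb and Vip lay above 10.1% and 8.38% of genes. The count of 7 of 9 is read against that background and shows nothing particular to the interneuron genes.

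**Figure D4:**
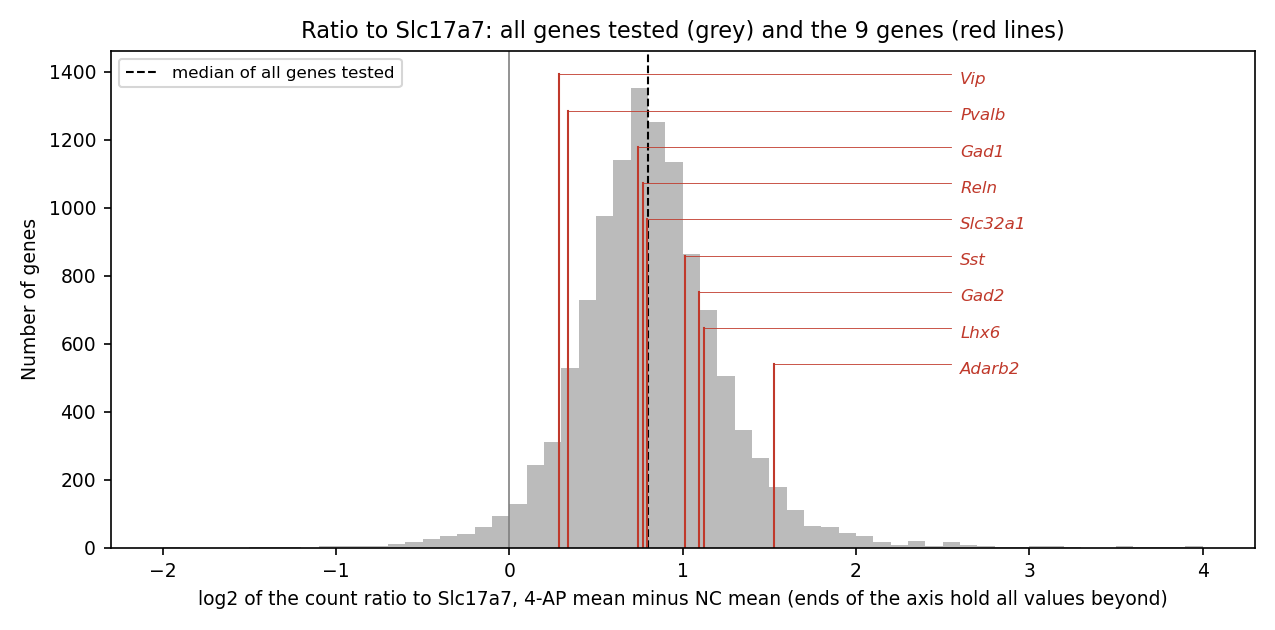
Histogram, over all genes tested, of the difference between 4-AP and NC means in the log2 count ratio to Slc17a7, with the 9 interneuron genes as red lines and the median of all genes (0.80) as a dashed line. Gad1, Reln and Slc32a1 lie beside the median, Vip and Pvalb to its left, and Adarb2, at 1.53, farthest to its right.

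With each library scaled to its Slc17a7 count, edgeR's quasi-likelihood test over all genes called the same 7 genes higher, with adjusted p between 8.18e-07 for Adarb2 and 0.0155 for Lhx6, and did not call Pvalb (0.409) or Vip (0.63). By this test 57.4% of all genes were called higher and 0.0263% lower. Other denominators gave fewer separated genes. With the summed excitatory markers as denominator 4 of the 9 genes (Gad1, Sst, Lhx6 and Adarb2) had ratios without overlap, beside 47.9% of all genes. With the summed pan-neuronal markers there were 2 (Lhx6 and Adarb2), beside 18.6% of all genes, and the differences of Pvalb (-0.27) and Vip (-0.31) were below 0. The 8 pan-neuronal markers themselves summed to between 2927 and 3378 CPM in 4-AP brain and between 3441 and 3864 CPM in NC brain, and none passed the test.

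Genes of GABA handling and of inhibitory synapses did not pass either. Of the 21 listed genes 19 were tested, with a median log2 fold change of -0.089 and 6 above 0. The groups did not overlap for 1 gene higher and 2 lower, beside 8.36% and 10.4% of all genes. Abat, the transaminase that breaks down GABA, was at 268, 284 and 328 CPM in 4-AP brain and at 236, 187 and 218 CPM in NC brain. Every 4-AP library was above every NC library, and the log2 difference was 0.46 (SE 0.15, edgeR adjusted p = 0.136). Nlgn2, the neuroligin of inhibitory synapses, was at 155, 91.1 and 138 CPM against 205, 157 and 211 CPM (log2 -0.59, SE 0.18, adjusted p = 0.129 by edgeR's test). Slc12a5 encodes KCC2, the chloride extruder that makes GABA inhibitory in mature neurons. It was at 676, 629 and 609 CPM against 976, 704 and 849 CPM (log2 -0.40, SE 0.14, adjusted p = 0.187 by edgeR's test), again without overlap. The mainly astrocytic GABA transporter gene Slc6a11 was at 0.46 (SE 0.48) and the inhibitory scaffold gene Gphn at 0.31 (SE 0.17).

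None of the wider set of interneuron identity genes tested passed. Of 22 listed transcription factors 17 were tested, with a median log2 fold change of -0.29 and 4 above 0. Maf, a factor of medial interneurons, was at 16.95, 11.1 and 10.2 CPM in 4-AP brain and at 28.0, 21.01 and 19.6 CPM in NC brain (log2 -0.86, SE 0.28, adjusted p = 0.147 by edgeR's test). Etv1 was at -0.62 (SE 0.27). Nr2f2, a factor of caudal interneurons, was at 0.79 (SE 0.40) and Npas3 at 0.46 (SE 0.21). Of 35 listed subclass markers 26 were tested, with a median of 0.13 and 17 above 0. Grin3a, an NMDA receptor subunit enriched in somatostatin cells, had the smallest p (log2 0.72, SE 0.19, adjusted p = 0.0643 by edgeR's test). Tacr1, the substance P receptor of the Nos1 and Chodl interneurons, was at 1.32 (SE 0.45), Npy2r at 1.24 (SE 0.53) and the serotonin receptor gene Htr3a, a marker of caudal interneurons, at 1.09 (SE 0.57), each from few counts. Lamp5, a marker of neurogliaform cells that cortical excitatory neurons also express, was at 34.6, 10.01 and 27.8 CPM in 4-AP brain and at 38.3, 39.7 and 41.1 CPM in NC brain (log2 -0.80, SE 0.32).

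Glial markers were summed in the same libraries. The 7 astrocyte markers summed to between 1578 and 1965 CPM in 4-AP brain and between 2244 and 2374 CPM in NC brain, but 5 of the 7 lay above 0 (median log2 fold change 0.15). The 1 that fell was Slc1a2, the main astrocytic glutamate transporter gene, at 1035 to 1224 CPM against 1703 to 1782 CPM, which made up most of both sums. The 6 microglia markers summed to between 442 and 529 CPM against 363 to 424 CPM, with 3 above 0 and a median log2 fold change of 0.0089. Most of that sum was Cx3cr1, the fractalkine receptor gene, at 327 to 404 CPM against 227 to 279 CPM. The 6 oligodendrocyte markers summed to between 2866 and 3885 CPM against 2464 to 3809 CPM, with 5 above 0 and a median of 0.071. None of the microglia or oligodendrocyte markers passed. The 1 listed subcortical glutamatergic marker, Slc17a6, did not pass. It was at 30.6, 29.3 and 54.1 CPM in 4-AP brain and at 38.0, 5.19 and 10.7 CPM in NC brain. The part of these markers in the interneuron results was not tested.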

How the data were processed

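For each of the 6 libraries the authors deposited whole-number counts of reads per gene. STAR 2.5.3a, featureCounts and mm10 are named in the submitters' processing notes. Strand setting, annotation release and the handling of multi-mapping reads: not given in the sources used here. Of 55604 identifiers 54809 matched GENCODE M21 (same assembly), and the 795 others held 0.00715% of counts. Coordinates are 1-based. After filterByExpr (minimum count 10, total 15) and TMM scaling, edgeR 4.0.16 in R 4.3.3 was run with its quasi-likelihood test (robust, group only, Benjamini-Hochberg over 11388 genes, threshold 0.05). The standard error is the fold change over the root of F. Ratios used counts plus 0.5.

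Every pair of libraries differed by more than sampling noise (lowest chi-square per degree of freedom 7.79). No label names separate animals, so p-values measure the spread between samples, which may be technical. Counting intervals and the floor of 3 counts cover counting error only. The edgeR procedure was run on simulated counts in which genes varied independently and Slc17a7 did not change. Regional differences between libraries were not simulated, and no result here rests on that run. The 9 genes and all lists were chosen with earlier results of these data known. The text names the 9, Slc17a7, up to 4 genes per list and direction by smallest p, the 5 most like the mean of Gad1, Gad2 and Slc32a1, and listed genes that passed; Adora2a, Gabra6, Pcp2 and Gm14205 were added after their values were seen. Some listed genes are not reported here. Promoters are RefSeq's (GRCm38.p6). Alternatives were other scalings and filters, DESeq2 1.42.0, limma-voom (limma 3.58.1), the replicate block, other denominators and each library left out.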

Additional observations from a re-analysis of the deposited data

How the results depend on the processing

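None of the 9 genes passed the test of 4-AP against NC, and 8 of them passed under none of the alternatives that gave them an adjusted p. DESeq2 gave none for Pvalb, Vip and Lhx6. Adarb2 passed with upper quartile scaling (adjusted p = 0.049 by edgeR's test), DESeq2 (0.0133), no filter on low counts (0.0231), the replicate block (0.0243) and an adjusted p limit of 0.1, besides the omissions of single libraries given above, and was at 0.48 with total counts only (adjusted p = 0.237). Directions turned for Gad1, Slc32a1, Reln and Sst, and for the Slc17a7 ratios of Pvalb and Vip. Slc32a1 was at 0.0012 with relative log expression size factors, 0.013 with upper quartile scaling, 0.043 with limma-voom and 0.0073 with the replicate block. Reln was at 0.00053 with relative log expression size factors and 0.012 with upper quartile scaling. Sst was at -0.00011 with total counts only, a setting that moved the median of all genes to -0.22. With single libraries left out, the log2 fold change ranged from -0.21 to 0.072 for Gad1, from -0.20 to 0.12 for Slc32a1, from -0.20 to 0.10 for Reln and from -0.010 to 0.35 for Sst. The ratio of Pvalb to Slc17a7 ranged from -0.065 to 0.74. With pan-neuronal markers as denominator the differences were -0.27 for Pvalb and -0.31 for Vip, and 2 of the 9 genes had ratios without overlap; with excitatory markers there were 4. Over all genes the 96 calls became 319 with total counts only (26 higher and 293 lower), 193 with DESeq2, 328 with no filter, 265 with the replicate block, 55 with no robust fit, 290 at an adjusted p under 0.1, and 26 to 159 with 1 library left out. Same-numbered samples deviated together with r of -0.0019, 0.113 and 0.0245, and not every sample correlated best with its own number, so the numbers were not taken as pairs; the block left every ratio difference as it was and its sign-flip test cannot go below p = 0.25. Pvalb, Vip and Lhx6, with 142 to 191 counts over all libraries, are the genes that depth limits most. The cause of these changes was not tested.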
